A study of Mus musculus with 3 samples.

Results

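Nuclear-encoded respiratory chain genes were followed across the cell classes of the mouse prefrontal cortex on postnatal day 6. The members are every row of the deposited expression table whose symbol begins with Ndufa, Ndufb, Ndufc, Ndufs, Ndufv, Uqcr, Cox4i, Cox5, Cox6, Cox7, Cox8, Atp5 or Sdh, without the Ndufaf assembly factors, which gave 88 of 20368 genes. They comprise 36 subunits of complex I, 4 of complex II with 4 factors that assemble it, 8 of complex III, 20 of complex IV and 16 of ATP synthase. The mice, of both sexes, had breathed the general anaesthetic sevoflurane at about 3% on postnatal day 6, and the tissue was taken that day. Droplet libraries of single cells number 3, and all belong to this 1 exposed group. No strain, genotype or unexposed group is given, so every comparison is between cell classes of exposed tissue and none bears on the exposure. Nothing in the labels ties a library to its own animal. A p-value therefore sets a class difference only against how class differences vary from library to library, and that spread may be technical.

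The respiratory chain passes electrons from NADH through complex I, and from succinate through complex II, to complex III and then to complex IV, which reduces oxygen. The protons pumped on the way drive ATP synthase. Several small subunits of complex IV exist as paired genes, of which one is used in most tissues and the other in particular tissues or under low oxygen.

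Cells were assigned to a class when both of its fixed genes were above 0 and no other class's pair was: Aqp4 and Gja1 for astrocytes, Pdgfra and Lhfpl3 for oligodendrocyte precursor cells (OPC), Mag and Mobp for oligodendrocytes, Dlx1 and Sp9 for neuroblasts, P2ry12 and Csf1r for microglia, Cldn5 and Flt1 for endothelium, and Kcnj8 and Vtn for pericytes. Of 14192 cells, 11322 fell into exactly 1 class: 3457 astrocytes, 2768 OPC, 1809 neuroblasts, 1635 microglia, 852 pericytes, 774 endothelial cells and 27 oligodendrocytes. A further 734 cells fell into more than 1 class and 2136 into none, and 90 barcode sequences occurred in more than 1 library. In every class 4 or 5 of 5 further markers, which were not used for assignment, had their highest mean level in that class. With 8, 8 and 11 cells in libraries 1, 2 and 3 the oligodendrocyte class was under the minimum of 20 per library and is described without a test. The libraries held 24612481 to 29581504 depth-corrected counts, and the median number of detected genes per cell ran from 1756 in neuroblasts of library 3 to 2885 in oligodendrocytes of library 1.

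Levels are given as CPM, a gene's corrected counts after every cell was brought to an equal total, averaged over the cells of a class within each library, with the mean and SD of the 3 libraries. A level is therefore a share of a cell's transcripts, it is not adjusted for transcript length, and it is compared between classes and not between genes. A fold is a difference of log2(mean CPM + 10), which understates the fold of weakly expressed genes. Differences were tested with limma across the 9768 genes whose mean over classes and libraries reached 10 CPM, with Benjamini-Hochberg adjustment and a threshold of 0.05. Of the members, 83 passed that filter. Cox6a2, Cox7a1, Cox7b2, Cox8b and Cox8c did not, and Cox8c was listed at 0 in every class.

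Summed over all 88 members, the chain took the largest share of transcripts in pericytes, the cells that wrap capillaries. The summed level was 40868, 43756 and 43595 CPM in libraries 1, 2 and 3 of the pericyte class, a mean of 42739 ± 1623 (SD, n = 3 libraries). OPC followed at 35165 ± 1079, astrocytes at 33567 ± 991 and neuroblasts at 33191 ± 658. Microglia at 25598 ± 774, oligodendrocytes at 25480 ± 2730 and endothelium at 24506 ± 1014 were lowest. All 3 pericyte libraries lay above every library of every other class. The 3 OPC libraries lay above those of astrocytes and neuroblasts, which overlapped each other, and the 3 lowest classes also overlapped. Without Cox4i2 and Ndufa4l2, described next, the pericyte level was 39872 ± 1606, and its lowest library, at 38024 CPM, was above the highest OPC library, at 36382 CPM.

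By complex, the order of classes was not the same. Complex I reached 12422 ± 570 CPM in pericytes and 11978 ± 273 in OPC, whose libraries overlapped, against 7474 ± 234 in microglia. Complex II, which links the chain to the citric acid cycle, stood at 997 ± 36.4 CPM in pericytes and 527 ± 16.7 in endothelium. Complex III was at 4989 ± 196 CPM in pericytes and next at 4236 ± 109 in astrocytes. Complex IV was at 13658 ± 442 CPM in pericytes, where the paralogues Cox4i2 and Ndufa4l2 were high, and at 10197 ± 301 or less elsewhere. ATP synthase was at 10511 ± 404 CPM in pericytes and next at 8990 ± 255 in neuroblasts. The pericyte libraries overlapped those of another class in complex I and in no other of these 5 complexes.

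**Figure D1:**
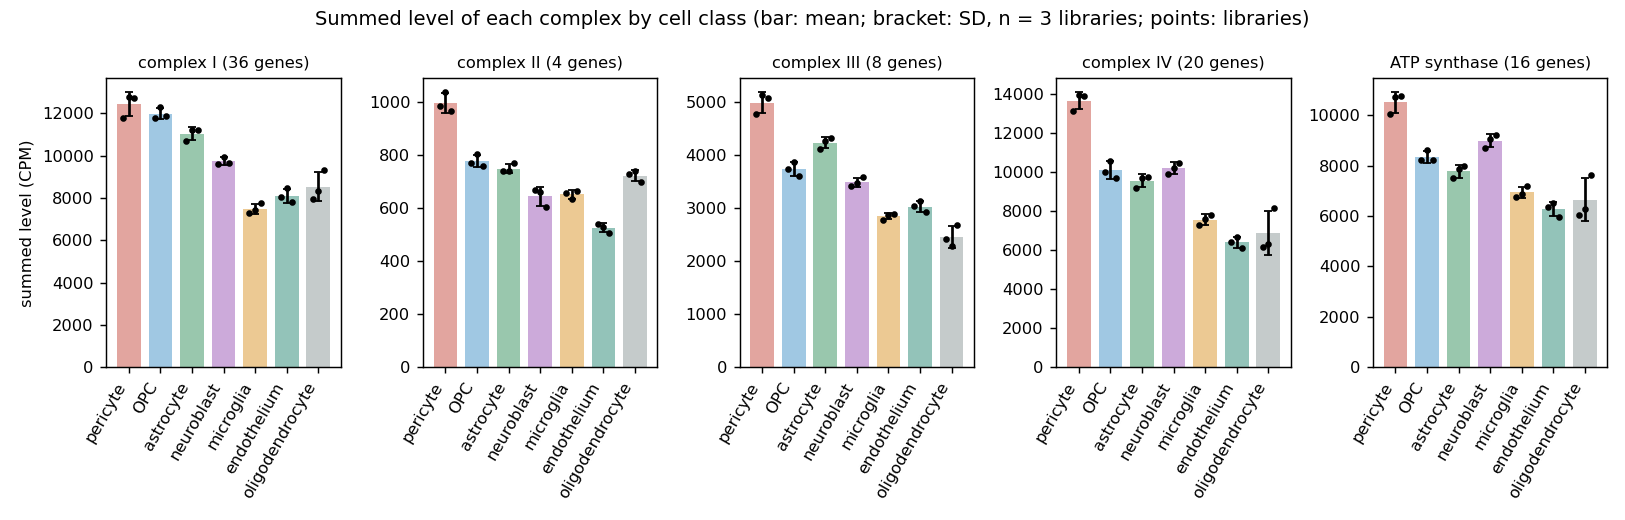
Summed level in CPM (vertical axis, from 0, each panel on its own scale) of the members of each complex in 7 cell classes (horizontal axis). Bars are means, brackets SD and points the 3 libraries; pericytes are highest in all 5 panels, at 12422 CPM for complex I and 13658 CPM for complex IV.

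Among the 83 tested members, 44 had their highest class mean in pericytes, 36 of them in each of the 3 libraries. The next were OPC with 19, astrocytes with 10, neuroblasts with 5, endothelium with 4 and microglia with 1. Of all 9768 tested genes, 13.9% were highest in pericytes and 23.5% in OPC. The lowest class was endothelium for 40 members and microglia for 32. The spread between classes was narrow for most members: the ratio of the highest to the lowest class mean, with 10 CPM added to both, had a median of 1.92 over the 83 members and 2.82 over all tested genes. Among genes averaging 100 CPM or more it was 1.92 for 76 members and 3.32 for 1874 genes.

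**Figure D2:**
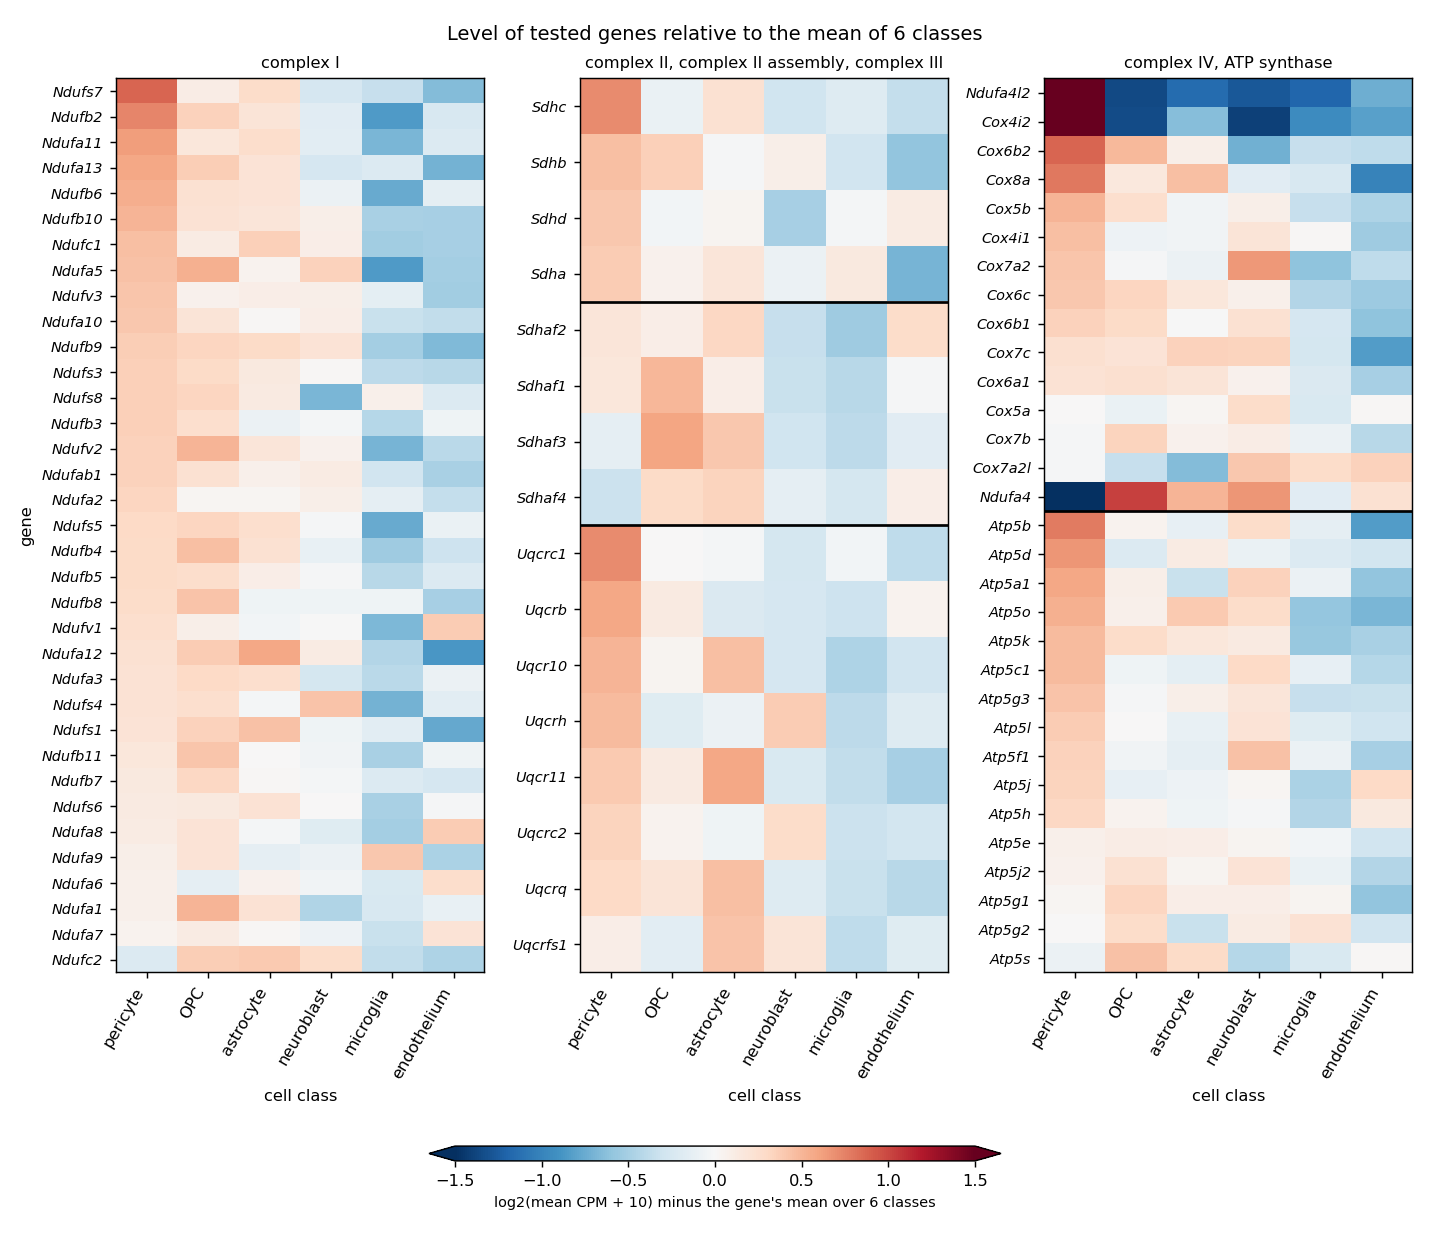
Colour shows log2(mean CPM + 10) of each tested gene shown (rows, grouped by complex) in each of 6 classes (columns) minus that gene's mean over the classes, cut off at 1.5 in either direction. The pericyte column is red for most genes, Ndufa4l2 and Cox4i2 are red there alone, and Ndufa4 is blue there.

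Class-specific paralogues were looked for as members at least 4 times as high in 1 class as in the next, with 10 CPM added to both. Cox4i2 and Ndufa4l2 met this rule, both in pericytes, and no other member did. Across all tested genes 891 did, 9.12% of 9768. Both passed the expression filter through the pericyte class alone, so they had to differ. Their log2 folds are given as a measure of size, without p-values.

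Cox4i2 (ENSMUSG00000009876.13, chr2:152754173-152765037, plus strand, GRCm38, protein-coding) encodes the second isoform of subunit 4 of cytochrome c oxidase, known from lung and from responses to low oxygen. Its level was 1019, 1073 and 1052 CPM in pericytes of libraries 1, 2 and 3, a mean of 1048 ± 27.2. The 3 values lay close together and far above every other class, where means were 9.29 ± 0.865 CPM in astrocytes, 7.09 ± 7.07 in endothelium, 5.56 ± 1.38 in microglia, 1.88 ± 0.341 in OPC and 1.38 ± 0.706 in neuroblasts. With 10 CPM added, pericytes were 54.8 times the next class. The log2 fold over the mean of the other 5 classes was 6.18 ± 0.14 (SE, limma). The gene was above 0 in 96.1% ± 0.765 of pericytes. Elsewhere the share ran from 0.614% of neuroblasts to 4.95% of astrocytes, with 0 of 27 oligodendrocytes, which allows a share of up to 11.1% of cells with a count, not of cells expressing the gene. After thinning every cell to 4000 corrected counts, the shares were 92.8% of pericytes and 3.48% of astrocytes.

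Ndufa4l2 (ENSMUSG00000040280.10, chr10:127514967-127517154, plus strand, protein-coding) encodes a paralogue of Ndufa4 and is a known target of the hypoxia-inducible factor HIF-1. Its level was 1825, 1758 and 1876 CPM in pericytes of libraries 1, 2 and 3, a mean of 1820 ± 59.6. It was listed at 0 in oligodendrocytes, and the other classes ranged from 3.75 ± 0.529 CPM in OPC to 11.1 ± 7.11 in endothelium, so no library of another class came near. The log2 fold was 6.87 ± 0.15 (SE, limma) over the other classes, and the level was 86.7 times the next class with 10 CPM added. It was above 0 in 99.0% ± 0.720 of pericytes (98.6% after thinning) and in 3.13% or less of any other class. Per cell, 95.9% ± 0.988 of pericytes held both Cox4i2 and Ndufa4l2, and 6 of 852 held neither. Ndufa4l2 overlaps Shmt2 on the opposite strand by 32 bases in GENCODE M21.

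Ndufa4 (ENSMUSG00000029632.7, chr6:11900292-11907497, minus strand, protein-coding), first assigned to complex I and now counted with complex IV, went the other way. Its level was 102, 113 and 97.9 CPM in pericytes of libraries 1, 2 and 3, a mean of 104 ± 7.59. All other classes were higher in every library: 1095 ± 35.3 CPM in OPC, 847 ± 41.7 in neuroblasts, 763 ± 31.5 in astrocytes, 626 ± 50.6 in endothelium, 600 ± 77.7 in oligodendrocytes and 475 ± 23.0 in microglia. The log2 fold in pericytes was -2.70 ± 0.05 (SE, limma, adjusted p = 2.74e-20), lower in 3 of 3 libraries, the largest fall of any member in any of the 8 comparisons. Ndufa4 was above 0 in 36.9% ± 0.847 of pericytes and in 88.4% to 99.5% of the other tested classes (30.4% of pericytes and 82.1% or more elsewhere after thinning). Within pericytes, 62.8% ± 0.815 held Ndufa4l2 without Ndufa4, 36.2% ± 1.26 held both and 6 of 852 cells held Ndufa4 without Ndufa4l2.

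Cox4i1, the usual isoform of subunit 4, was not lower where Cox4i2 was high. Cox4i1 (ENSMUSG00000031818.12, chr8:120668222-120674207, plus strand) stood at 1890, 2032 and 1904 CPM in pericytes of libraries 1, 2 and 3, above every library of every other class. Its means were 1620 ± 112 CPM in neuroblasts, 1432 ± 60.3 in microglia, 1363 ± 41.7 in astrocytes, 1340 ± 74.6 in OPC, 976 ± 40.0 in endothelium and 941 ± 98.1 in oligodendrocytes. Microglia, astrocytes and OPC overlapped each other, and so did endothelium and oligodendrocytes. The annotation places Gm20388 across all of Cox4i1 on the same strand and Emc8 across 352 bases on the other, so reads of these genes may be split in the counts.

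As a share of its pair, Cox4i2 gave 35.1% ± 0.515 of the summed Cox4i1 and Cox4i2 level in pericytes and a mean of 0.699% or less in every other class. Ndufa4l2 gave 94.6% ± 0.543 of the summed Ndufa4 and Ndufa4l2 level in pericytes and a mean of 1.70% or less elsewhere. By counts alone, the first pair held mostly the usual gene in pericytes and the second mostly the paralogue. These are shares of unadjusted levels, and the genes of a pair differ in length. The shares are therefore compared between classes and do not rank the genes of a pair.

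**Figure D3:**
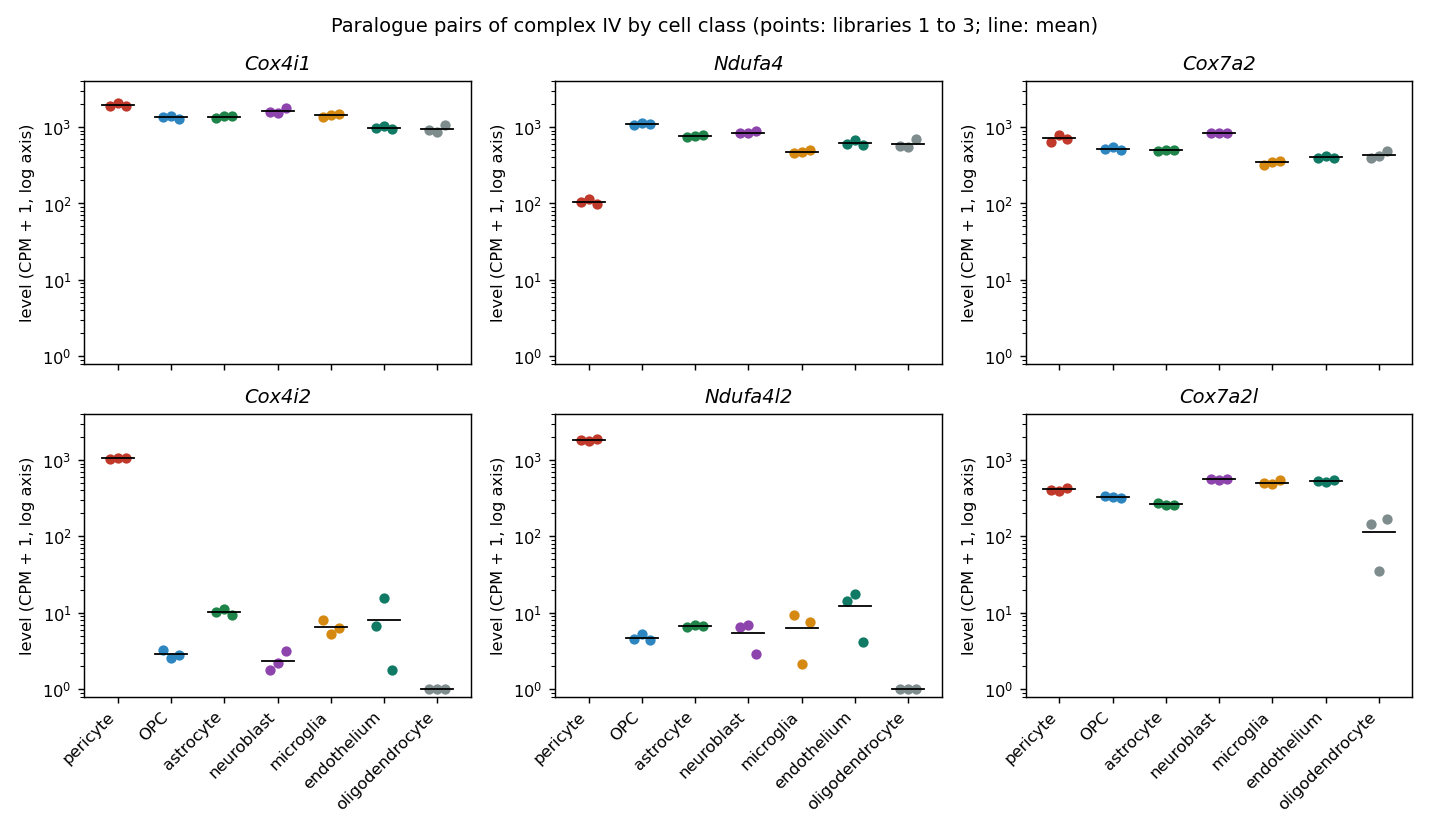
Level in CPM plus 1 (vertical axis, logarithmic) of 3 pairs of complex IV genes in 7 classes, with the usual gene above and its paralogue below. Points are the 3 libraries and lines their mean; Cox4i2 and Ndufa4l2 sit above 1000 CPM in pericytes and below 20 CPM elsewhere, and Ndufa4 is near 104 CPM in pericytes.

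The small levels of both genes in endothelium moved with pericyte markers. In endothelium Ndufa4l2 was at 13.5, 16.7 and 3.11 CPM and Cox4i2 at 5.74, 14.7 and 0.784 CPM in libraries 1, 2 and 3. Rgs5, a defining pericyte marker, was at 155, 172 and 26.4 CPM in the same libraries. All 3 genes were lowest in library 3. The 5 pericyte markers summed to 146 ± 99.3 CPM in endothelium and 20702 ± 966 in pericytes, and none was at 0 in endothelium. The part of stray pericyte RNA in the endothelial values was not tested.

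Smooth muscle cells, the other mural cells, could share the pericyte gate. Their 4 markers (Acta2, Tagln, Myh11 and Cnn1) summed to 585, 367 and 940 CPM in pericytes of libraries 1, 2 and 3 and to 45.8 CPM or less in every library of the other classes. Without the 60 pericyte-class cells that held both Acta2 and Myh11, the remaining 792 gave 1064 ± 37.1 CPM of Cox4i2, 1835 ± 67.0 of Ndufa4l2 and 101 ± 9.96 of Ndufa4. The 60 cells themselves gave 849 ± 135 CPM of Cox4i2, 1612 ± 115 of Ndufa4l2 and 139 ± 37.3 of Ndufa4. In every library both groups had more Cox4i2 and Ndufa4l2, and less Ndufa4, than any of the other classes.

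Over all cells of a library, 75.5% ± 5.92 of the corrected counts of Cox4i2 and 76.1% ± 6.48 of those of Ndufa4l2 lay in the pericyte class. Cells of more than 1 class held 15.9% ± 4.16 and 14.5% ± 4.75, and cells of no class 3.44% ± 0.638 and 6.23% ± 0.586. The largest such overlap was between the pericyte and endothelium pairs, in 146 cells. The 136 of them with no other pair had 728 ± 208 CPM of Cox4i2 and 1111 ± 183 of Ndufa4l2.

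In the comparison of pericytes with the mean of the other 5 classes, most of the chain was higher. Of 83 tested members, 67 were higher and 3 lower, where 33.0% of all tested genes were higher and 36.4% lower. The members' median log2 fold was 0.41 and that of all genes -0.02. A list of 18 general mitochondrial proteins had 11 higher and 2 lower in pericytes, at a median of 0.24. The direction was therefore not particular to the chain. The summed level of that list was 5733 ± 174 CPM in pericytes and 5583 ± 87.6 in astrocytes, and their libraries overlapped. Members higher were 31 of 36 in complex I, 4 of 4 in complex II, 7 of 8 in complex III, 11 of 15 in complex IV and 12 of 16 in ATP synthase. The 67 and the 11 of complex IV include Cox4i2 and Ndufa4l2, which had to differ, and so do the counts against endothelium below. After the 2 paralogues, the largest rise was of Cox6b2, which encodes an isoform of subunit 6b known from testis, at a log2 fold of 1.06 ± 0.12 (SE, limma, adjusted p = 8.69e-08). Its level was low, 32.2, 27.0 and 35.5 CPM in pericytes against 24.1 CPM or less in every library of the other 5 tested classes.

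The member with the largest rise in each of the other complexes was picked after its value was seen. Ndufs7, an iron-sulphur subunit of complex I, was at 406, 423 and 417 CPM in pericytes and at 272 ± 6.55 in astrocytes, the next class, with a log2 fold over the other classes of 1.04 ± 0.05. Sdhc, a membrane anchor of complex II, was at 188, 213 and 218 CPM against 145 ± 9.14 in astrocytes, and its log2 fold was 0.85. Uqcrc1, a core subunit of complex III, was at 504, 555 and 551 CPM against 324 ± 6.77 in OPC, and its log2 fold was 0.86. Atp5b, the catalytic beta subunit of ATP synthase, was at 1553, 1692 and 1635 CPM against 1144 ± 11.6 in neuroblasts, and its log2 fold was 0.93 ± 0.04. In each of these 4 genes every pericyte library lay above every library of the other classes.

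The members lower in pericytes were Ndufa4, Sdhaf4 and Ndufc2. Sdhaf4, a factor that helps assemble complex II, was at 44.4, 54.4 and 54.5 CPM in pericytes against a mean of 86.1 ± 3.25 in astrocytes, with a log2 fold of -0.38 ± 0.08 (SE, limma, adjusted p = 0.000175). Its pericyte values overlapped those of microglia, at 53.3 ± 2.04 CPM. Ndufc2, a membrane-arm subunit of complex I, had a log2 fold of -0.26 ± 0.05 (SE, limma, adjusted p = 0.000102), with 286, 371 and 365 CPM in pericytes. These overlapped endothelium at 284 ± 10.5 and microglia at 302 ± 11.2, and lay below astrocytes, OPC and neuroblasts. With the oligodendrocyte class added to the fit neither was past the threshold (limma, adjusted p = 0.0561 for Sdhaf4 and 0.589 for Ndufc2).

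Set against endothelium alone, the neighbouring cell of the vessel wall, the difference in pericytes was wider. Of 83 members 70 were higher and 6 lower, with 40.6% of all genes higher and 24.1% lower, and the median log2 fold was 0.71 against 0.13 for all genes. The 18 general mitochondrial proteins had 13 higher and 1 lower here, at a median of 0.69. Cox8a, a small subunit of complex IV (ENSMUSG00000035885.5, chr19:7215153-7217616, minus strand), was at 1539, 1646 and 1773 CPM in pericytes and 491, 487 and 431 CPM in endothelium. Its log2 fold was 1.79 ± 0.07 (SE, limma, adjusted p = 5.18e-15), higher in 3 of 3 libraries, without overlap. Ndufa4l2 and Cox4i2 gave 6.50 ± 0.19 and 6.04 ± 0.17. The lower members were led by Ndufa4, at a log2 fold of -2.48 ± 0.06, then Sdhaf4 at -0.42 ± 0.10 and Cox7a2l at -0.37 ± 0.05, and these last 2 were not past the threshold with oligodendrocytes in the fit (limma, adjusted p = 0.153 and 0.372). The 5 erythroid markers also differed between these classes, at a summed 20381 ± 1696 CPM in endothelium and 8473 ± 5363 in pericytes. With hemoglobin genes taken out of the total, 69 members were higher and 6 lower.

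**Figure D4:**
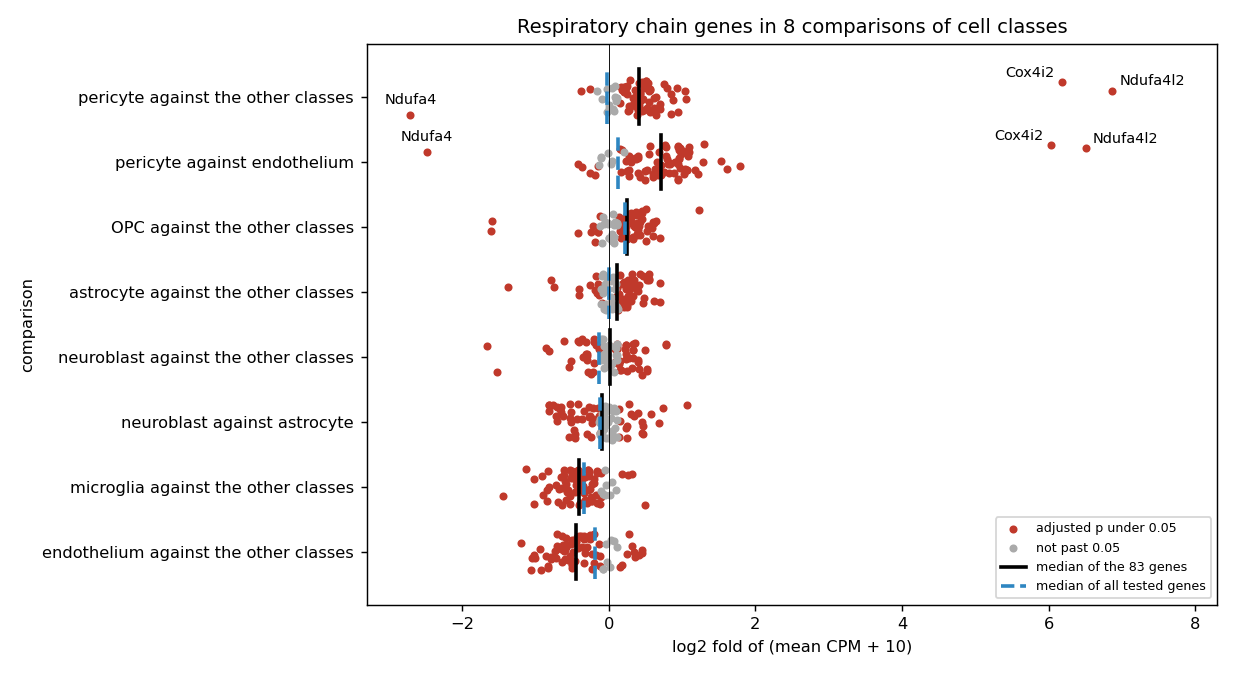
Log2 fold of (mean CPM + 10) of the 83 tested members (points, horizontal axis) in 8 comparisons (rows); red points passed an adjusted p of 0.05 in limma. Black lines are the members' medians and dashed blue lines those of all 9768 tested genes, which are 0.41 and -0.02 in pericytes against the other classes.

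Endothelium had most members low. Against the other classes 10 of 83 were higher and 65 lower, with 30.1% of all genes higher and 50.8% lower, and the median log2 fold was -0.45 against -0.19 for all genes. The 18 general mitochondrial proteins were low there too, with 2 higher and 14 lower and a median of -0.57. Leaving Cox4i2 aside, Cox8a fell furthest, at -1.20 ± 0.05 (SE, limma, adjusted p = 4.19e-14), and then Ndufa12, an accessory subunit of complex I, at -1.05 ± 0.05. Cox4i2 gave -1.06 (1.26 when cells of more than 1 class were kept), against a mean that includes pericytes. Its mean level in endothelium was not below those of microglia, OPC and neuroblasts. Ndufa12 was at 170, 156 and 143 CPM in endothelium and at 194, 221 and 228 CPM in microglia, the next lowest tested class, without overlap. The members higher in endothelium were led by Ndufa8, an accessory subunit of complex I, at 0.46 ± 0.04, Ndufv1, which binds the flavin that takes electrons from NADH, at 0.45 ± 0.06, and Cox7a2l at 0.41 ± 0.04.

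In the comparisons of the other classes, pericytes are part of the mean each class is set against, which bears on Cox4i2, Ndufa4l2 and Ndufa4. With pericytes left out, Cox4i2 and Ndufa4l2 did not pass the expression filter. Ndufa4 remained higher in OPC, at a log2 fold of 0.72 (1.23 with pericytes), and in neuroblasts, at 0.26 (0.79 with pericytes), and lower in microglia, at -0.77 (-0.20 with pericytes). In astrocytes it went from 0.61 to 0.074, which was not past the threshold (limma, adjusted p = 0.159), and in endothelium from 0.27 to -0.28. Other members are named in the comparisons that follow.

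Most members were also low in microglia. Of 83, 4 were higher and 71 lower, with 23.0% of all genes higher and 59.7% lower. The median log2 fold was -0.40 against -0.33 for all genes, and after centring each class and library on its median gene 18 were higher and 42 lower. Complex I had 33 of 36 members lower. The largest fall was of Ndufb2 at -1.02 ± 0.06 (SE, limma, adjusted p = 2.32e-12), an accessory subunit of complex I. This leaves aside the 2 pericyte paralogues, which were set against a mean that includes pericytes. Higher were Ndufa9, an accessory subunit near the quinone site, at 0.49 ± 0.06, Cox7a2l at 0.32 ± 0.04, Atp5g2, a gene of the c ring, at 0.26 ± 0.04, and Sdha, the flavin subunit of complex II.

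OPC had 54 members higher and 9 lower of 83, with 52.9% of all genes higher and 24.2% lower, and this direction changed with the scaling: after centring on the median gene 14 were higher and 37 lower. The median log2 fold was 0.25 against 0.22 for all genes. Complex I had 32 of 36 members higher. Sdhaf3, an assembly factor of complex II, rose by 0.70 ± 0.08 (SE, limma, adjusted p = 2.55e-07) and Ndufa5, an accessory subunit of complex I, by 0.65 ± 0.06. Cox7a2l was lower, at -0.41 ± 0.04, a call that ended when the oligodendrocyte class was added to the fit (log2 fold -0.068, adjusted p = 0.814).

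Astrocytes had 42 members higher and 12 lower, with 37.5% of all genes higher and 36.4% lower, and 22 higher and 31 lower after centring. Their median log2 fold was 0.12 against 0.01 for all genes. Uqcr11, a small subunit of complex III, was at 833, 885 and 923 CPM in astrocytes and 768 ± 45.7 in pericytes, the next class, without overlap. It rose by 0.70 ± 0.04 over the other classes (SE, limma, adjusted p = 9.91e-12), and Ndufa12 by 0.69 ± 0.05. Cox7a2l was the lowest of the members not tied to pericytes, at -0.78 ± 0.04, and with the oligodendrocyte class added its log2 fold was -0.43 (adjusted p = 0.13).

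Neuroblasts were mixed, with 33 members higher and 26 lower, where 34.1% of all genes were higher and 47.2% lower. After centring 51 were higher and 15 lower. The median log2 fold was 0.02 against -0.13 for all genes. ATP synthase had 11 of 16 members higher and complex IV 10 of 15, while complex III had 5 of 8 lower and complex II assembly 4 of 4 lower. Cox7a2 rose by 0.79 ± 0.04 (SE, limma, adjusted p = 2.29e-12) and Atp5f1, the b subunit of the stator stalk, by 0.52 ± 0.04. Cox6b2 was lower, at -0.86 ± 0.12, from levels of 5.14, 3.66 and 2.33 CPM.

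Against astrocytes alone, neuroblasts had 18 members higher and 34 lower, with 30.8% of all genes higher and 42.9% lower, and 48 higher and 18 lower after centring. The median log2 fold was -0.10 against -0.11 for all genes. The largest rises were of Cox7a2l at 1.06 ± 0.05 (SE, limma, adjusted p = 5.23e-13), Cox7a2 at 0.74 ± 0.06 and Atp5a1, the alpha subunit of ATP synthase, at 0.69 ± 0.07. The largest falls were of Uqcr11 at -0.81 ± 0.05, Ndufs8, an iron-sulphur subunit of complex I, at -0.81 ± 0.06, and Cox6b2 at -0.81 ± 0.15, whose adjusted p was 0.0899 with oligodendrocytes in the fit. Members of a complex went both ways: complex IV had 7 of 15 higher and 4 lower, and complex I 2 of 36 higher and 16 lower.

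Cox7a2 and Cox7a2l changed their balance between other classes than pericytes. Cox7a2 (ENSMUSG00000032330.7, chr9:79755361-79759878, minus strand) is the usual isoform of subunit 7a, and Cox7a2l (ENSMUSG00000024248.14, chr17:83501918-83517330, minus strand) is known to join complexes III and IV into supercomplexes. Cox7a2l was at 498, 477 and 540 CPM in microglia and 535, 513 and 546 CPM in endothelium, where Cox7a2 was at 321 to 362 and 391 to 423 CPM. It was at 269, 258 and 258 CPM in astrocytes and 336, 328 and 315 CPM in OPC, where Cox7a2 was at 496 ± 3.88 and 521 ± 19.1. Neuroblasts were high in both, at 562, 544 and 565 CPM of Cox7a2l and 834 ± 9.52 of Cox7a2. Cox7a2l thus made up 59.5% ± 1.44 of the pair's summed level in microglia and 56.9% ± 1.78 in endothelium, against 40.0% ± 0.729 in neuroblasts, 38.5% ± 0.697 in OPC, 36.8% ± 2.85 in pericytes and 34.5% ± 0.753 in astrocytes. Microglia and endothelium did not overlap the other 4 classes. Oligodendrocytes, with few cells, gave 7.61% to 27.1%.

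Cox7a1, Cox6a2 and Cox6b2 were weak in every class. Cox7a1, the isoform of heart and skeletal muscle, was highest in astrocytes at 11.8, 11.3 and 12.9 CPM and in pericytes at 7.24, 6.02 and 16.4, and these overlapped. Cox6a2, the muscle isoform of subunit 6a, was highest in microglia at 4.64 ± 2.73 CPM. Cox6b2 gave 2.71% ± 0.437 of the summed Cox6b1 and Cox6b2 level in pericytes and less in the other 5 tested classes. The c-ring genes Atp5g1, Atp5g2 and Atp5g3, which encode the same mature protein, were all present in every class. Among the tested classes Atp5g1 was highest in OPC at 450 ± 23.9 CPM, Atp5g2 in OPC at 628 ± 34.9 and Atp5g3 in pericytes at 301 ± 23.4.

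Promoter sequences were read for the members to show what they share upstream. RefSeq (GRCm38.p6) entries matched 73 of the 88 members, 2 of them by an older symbol, and the 250 bases before each start were searched on both strands. Members without a matched entry include Atp5a1, Cox4i1, Cox4i2, Cox6a2, Cox6c, Cox8c, Ndufa2, Ndufa4l2, Ndufb9, Ndufs1, Sdhc, Uqcrb, Uqcrc2 and Uqcrq. NRF1 is a transcription factor known for binding promoters of nuclear-encoded respiratory genes, and its motif, GCGCA followed by any base and GCGC, was found in 13 of 73 members, 17.8%. It was found in 10.2% of 7853 tested genes with an entry and in 4.23% of all 27025 genes. The ETS motif CCGGAAG was found in 14 members, 19.2%, against 16.5% of tested genes and 7.83% of all genes. The YY1 motif AANATGGCG, with N any base, was found in 4 members, 5.48%, against 2.81% and 1.29%. A match is a description of the letters and not a binding site. The 3 members with 2 or more NRF1 matches in a single promoter are shown with Ndufa4, Cox8a and Cox7a2l, on which the comparisons above turn and which hold no match to any of the 3 motifs. The starts are those of RefSeq. The Cox7a2l stretch lies within its GENCODE gene given above, and the Ndufa4 stretch partly does, so the absence of a match holds for the RefSeq starts only. Bases run 5′ to 3′ on the gene's strand, and capitals mark NRF1 matches and, in Cox6a1, 1 ETS match as CTTCCGG, its reverse complement.
Ndufb4 (chr16:37654369-37654618, minus strand): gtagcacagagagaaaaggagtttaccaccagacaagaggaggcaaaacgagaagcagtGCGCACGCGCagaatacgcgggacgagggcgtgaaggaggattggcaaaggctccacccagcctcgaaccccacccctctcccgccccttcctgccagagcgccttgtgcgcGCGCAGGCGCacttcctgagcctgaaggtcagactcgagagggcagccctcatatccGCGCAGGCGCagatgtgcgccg
Sdha (chr13:74350241-74350490, minus strand): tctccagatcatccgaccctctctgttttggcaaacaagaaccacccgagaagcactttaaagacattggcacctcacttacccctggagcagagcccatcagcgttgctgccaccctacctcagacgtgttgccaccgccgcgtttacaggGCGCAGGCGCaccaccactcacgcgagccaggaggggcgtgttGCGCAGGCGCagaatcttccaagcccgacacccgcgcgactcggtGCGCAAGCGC
Cox6a1 (chr5:115348959-115349208, minus strand): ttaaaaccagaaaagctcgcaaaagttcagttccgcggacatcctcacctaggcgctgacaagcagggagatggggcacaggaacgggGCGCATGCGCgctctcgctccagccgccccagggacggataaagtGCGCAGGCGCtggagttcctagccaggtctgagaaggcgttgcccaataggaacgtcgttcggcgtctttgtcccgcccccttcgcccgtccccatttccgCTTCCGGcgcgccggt
Ndufa4 (chr6:11907451-11907700, minus strand): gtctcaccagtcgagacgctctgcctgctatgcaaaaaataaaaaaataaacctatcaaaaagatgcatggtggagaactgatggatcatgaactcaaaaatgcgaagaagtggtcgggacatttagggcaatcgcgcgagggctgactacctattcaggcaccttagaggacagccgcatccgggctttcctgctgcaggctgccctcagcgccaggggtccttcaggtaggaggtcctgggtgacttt
Cox8a (chr19:7217617-7217866, minus strand): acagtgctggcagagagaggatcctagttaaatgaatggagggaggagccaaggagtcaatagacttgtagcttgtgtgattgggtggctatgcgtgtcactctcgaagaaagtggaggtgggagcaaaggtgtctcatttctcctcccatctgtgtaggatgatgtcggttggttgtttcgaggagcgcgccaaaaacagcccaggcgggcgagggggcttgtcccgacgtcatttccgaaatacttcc
Cox7a2l (chr17:83514334-83514583, minus strand): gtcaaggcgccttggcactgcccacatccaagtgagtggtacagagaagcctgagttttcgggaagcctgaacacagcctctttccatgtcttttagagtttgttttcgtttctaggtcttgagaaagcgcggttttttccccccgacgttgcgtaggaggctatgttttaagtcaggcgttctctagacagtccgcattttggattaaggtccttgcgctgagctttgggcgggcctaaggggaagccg

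The levels of the 3 members shown for their NRF1 matches were as follows. Ndufb4, an accessory subunit of complex I, was highest in OPC at 375 ± 19.5 CPM and lowest of the tested classes in microglia at 185 ± 9.76. Sdha was highest in pericytes at 217 ± 17.9 CPM and lowest of the tested classes in endothelium at 97.9 ± 4.34. Cox6a1, the usual isoform of subunit 6a, was highest in OPC at 946 ± 44.8 CPM and lowest in endothelium at 563 ± 20.6.

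Other genes of energy metabolism were counted from lists chosen with earlier results of these data known. Cyc1 and Cycs, which lie outside the symbol rule, moved with the members. Cyc1 encodes cytochrome c1, a subunit of complex III that its sums and counts above leave out. Cycs encodes cytochrome c, which carries electrons to complex IV. Cycs was at 516 CPM in pericytes, with a log2 fold of 1.01 ± 0.06, and Cyc1 at 353 CPM, with 0.61 ± 0.05 (SE, limma). Both were higher in pericytes and in astrocytes and lower in microglia and endothelium.

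Of 17 genes of the citric acid cycle list, 13 were higher and 0 lower in pericytes, and 1 was higher and 16 lower in endothelium. The cycle feeds NADH and succinate to the chain, and the list also holds Dlat, which is not an enzyme of the cycle. Of all tested genes, 33.0% were higher and 36.4% lower in pericytes, and 30.1% and 50.8% in endothelium. In pericytes Suclg2, a subunit of succinyl-CoA ligase, had a log2 fold of 1.51 ± 0.08 and Dlat, of pyruvate dehydrogenase, 0.87 ± 0.08. In endothelium Idh2, mitochondrial isocitrate dehydrogenase, had -1.86 ± 0.10. Idh2 was higher in microglia, at 1.46 ± 0.10, where 5 of 17 were higher and 11 lower, near the 23.0% and 59.7% of all genes. Astrocytes had 13 higher and 0 lower, against 37.5% and 36.4% of all genes, led by citrate synthase Cs at 1.05 ± 0.07 and Idh3a at 1.04 ± 0.07. Suclg2 was lower in neuroblasts, at -2.39 ± 0.08.

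The summed level of the glycolysis list, which holds transporters as well as enzymes, was highest in astrocytes and second in endothelium. No sum without the transporters was made, so the endothelial place is that of the list and not of the enzymes. Of 19 tested genes of the list, 8 were higher and 10 lower in pericytes, 8 higher and 9 lower in endothelium, and 13 higher and 3 lower in astrocytes. The shares of all tested genes were 33.0% and 36.4%, 30.1% and 50.8%, and 37.5% and 36.4%, so the endothelial count lower was near its share. The summed level of the list was 7763 ± 162 CPM in astrocytes, 6276 ± 130 in endothelium, 4704 ± 101 in pericytes and 3127 ± 153 in neuroblasts. In endothelium the leading genes were the lactate transporter Slc16a1, with a log2 fold of 6.23 ± 0.08, and the glucose transporter Slc2a1, with 4.98 ± 0.10, which carry substrates across the vessel wall and are not glycolytic enzymes. In pericytes Aldoa, an aldolase, had 1.69 ± 0.06 and Slc16a1 -2.34 ± 0.08, which turned to 0.49 when cells of more than 1 class were kept. This value of Slc16a1 is set against a mean that includes endothelium, where the gene was high. Against astrocytes, neuroblasts had 0 of 19 higher and 17 lower, against 30.8% and 42.9% of all genes, led by Aldoc at -5.15 ± 0.15 and Aldoa at -2.27 ± 0.08. Aldoc was also a marker used to check the astrocyte class.

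**Figure D5:**
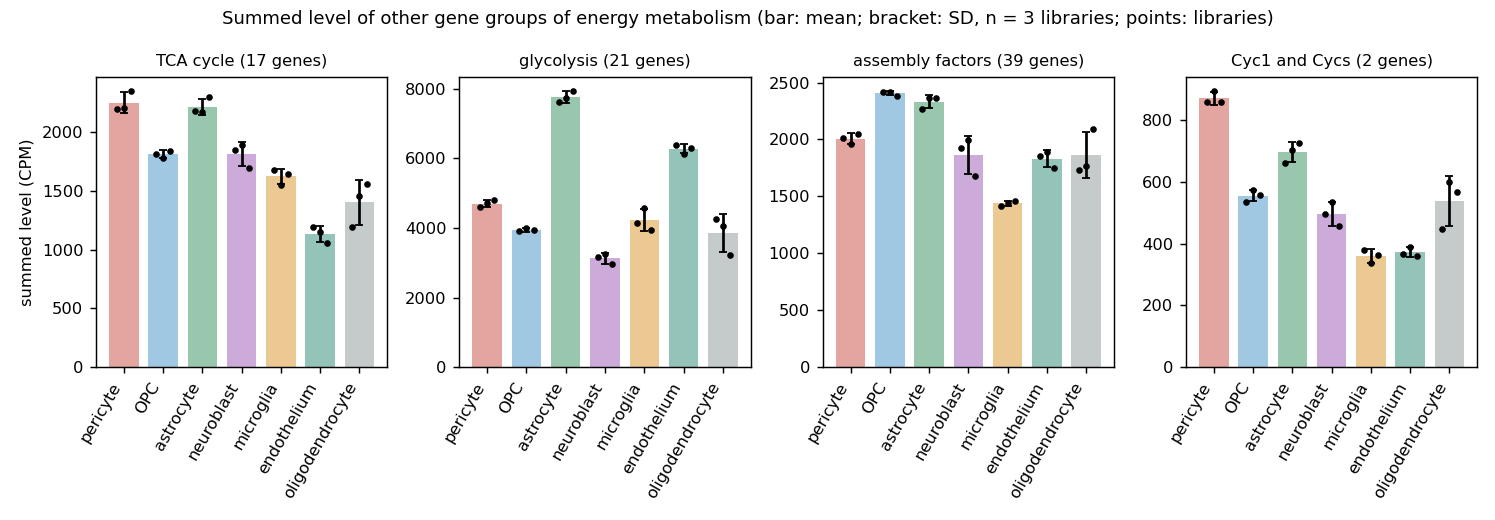
Summed level in CPM (vertical axis, from 0, each panel on its own scale) of the citric acid cycle, glycolysis, assembly factors and Cyc1 with Cycs in 7 classes (horizontal axis). The glycolysis list includes transporters, and the citric acid cycle list includes Dlat, of pyruvate dehydrogenase. Bars are means, brackets SD and points the 3 libraries; glycolysis is highest in astrocytes at 7763 CPM, while Cyc1 and Cycs are highest in pericytes.

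Assembly factors of the complexes, which build them and are not part of them, had 9 of 35 higher and 7 lower in pericytes, with 33.0% and 36.4% of all genes and a median log2 fold of 0.00 against -0.02 for all genes. Ndufaf4 had 0.60 ± 0.08 and Atpaf2 -0.55 ± 0.09 there, the latter with an adjusted p of 0.179 when oligodendrocytes were in the fit. Astrocytes had 23 of 35 higher, with 37.5% of all genes higher, led by Fmc1 at 1.42 ± 0.09. OPC also had 23 higher, with 52.9% of all genes higher, led by Ttc19 at 1.36 ± 0.07. Microglia had 27 lower, with 59.7% of all genes lower. In endothelium 5 were higher, led by Uqcc3 at 1.37 ± 0.07 and Atpaf2 at 1.30 ± 0.09, and 19 lower, with 30.1% and 50.8% of all genes. In neuroblasts Cox20, an assembly factor of complex IV, had 1.44 ± 0.06.

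Of 8 tested regulators of mitochondrial content, 4 were higher and 1 lower in pericytes, with 33.0% and 36.4% of all genes. The list's summed level was also highest there, at 369 ± 16.8 CPM against 320 ± 6.52 in endothelium, the next class. The 1 lower was Ppargc1a, a coactivator of NRF1 and related factors. It was at 83.3 CPM in astrocytes, 22.7 in OPC and 1.07 in pericytes, and its log2 fold was 2.73 ± 0.07 in astrocytes and -0.96 ± 0.07 in pericytes. Yy1 had 0.53 ± 0.06 in pericytes. Of 16 tested oxygen-responsive genes, 4 were higher and 6 lower in pericytes, near the shares of all genes. The summed level of this list was nevertheless highest in pericytes, at 4338 ± 148 CPM against 1991 ± 78.3 in endothelium, the next class. That sum includes Higd1b. Higd1b, a mitochondrial protein of the hypoxia-induced domain family that was also used to check the pericyte class, had a log2 fold of 7.43 ± 0.20. Epas1, which encodes HIF-2 alpha, had 2.87 ± 0.08 in pericytes and 3.08 ± 0.08 in endothelium. In endothelium neither Cox4i2 nor Ndufa4l2 was above 20 CPM in any library, and a link of Epas1 to either gene was not tested. Vegfa, another gene of this list, was higher in astrocytes, at 3.15 ± 0.08, and Adm in endothelium, at 4.29 ± 0.11.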

How the data were processed

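Droplet libraries of single prefrontal cortex cells were available for 3 samples of 1 group. The tools named for the authors' processing were Seurat, Cell Ranger and CASAVA 1.8, and the mouse build was mm10, per the submitters' processing notes. The authors deposited 1 table of natural log values, ln(1 + corrected count); undoing the log gave whole numbers within 1e-06 for all 34958786 values above 0. How the counts were corrected for depth is not given in the sources used here. Cells held 4422 to 8135 corrected counts, so differences in sequencing depth between cells cannot be recovered.

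Python 3.11.15 (numpy 2.4.6, pandas 2.3.3) computed CPM per cell and class means per library. Linear models of log2(mean CPM + 10) were made in limma 3.58.1 (R 4.3.3) using a variance trend and a block for the library, since cells of all classes share a library. The fit held 6 classes and 10 residual degrees of freedom, and 8 of 10 planned comparisons were made. The other two needed oligodendrocytes. P-values were adjusted by Benjamini-Hochberg over all 9768 tested genes. The fit was also run on values simulated with normal noise of its own residual spread, which checks the code and not the calls made here. Cells of more than 1 class were left out, and doublets called by Scrublet (scanpy 1.11.5; 120, 78 and 89 cells in libraries 1, 2 and 3) were left out as an alternative only.

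Named genes were all paralogues, members enriched in 1 class, the 3 members with the largest rise and fall past the threshold with the same direction in every library, and at most 2 genes per list. The members and lists were chosen with earlier results of these data known. Genes not reported here by name remain in the counts and sums. Positions are from GENCODE M21 (GRCm38).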

Additional observations from a re-analysis of the deposited data

How the results depend on the processing

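Of the named genes' values under other settings, 1886 kept their direction and side of the threshold, 20 lost the call and 5 reversed. Of the counts, sums and shares, 306 stayed close and 24 moved. Centring each class and library on its median gene gave 22 members higher and 31 lower in astrocytes, 14 and 37 in OPC, 51 and 15 in neuroblasts, 18 and 42 in microglia, and 48 and 18 in neuroblasts against astrocytes. It moved the median log2 fold of all genes from 0.22 to -0.10 in OPC, from -0.33 to -0.06 in microglia, from 0.01 to -0.14 in astrocytes, from -0.13 to 0.06 in neuroblasts and from -0.11 to 0.17 in neuroblasts against astrocytes, and it turned Ndufa4 in microglia to 0.078. Keeping cells of more than 1 class gave summed levels of 25963 CPM in endothelium and 40962 in pericytes, a Cox4i2 share of 34.4% and an Ndufa4l2 share of 90.6% in pericytes, and an Ndufa4l2 share of 20.1% in endothelium. By construction, that setting puts the 146 cells with both pairs into both classes. It reversed Cox4i2 (1.26) and Ndufa4l2 (1.51) in endothelium and Slc16a1 in pericytes (0.49, limma, adjusted p = 0.203).

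The next settings were chosen after seeing the data. Adding the oligodendrocyte class left 4 members lower in astrocytes, 2 in OPC, 14 in neuroblasts, 1 in pericytes, 2 in pericytes against endothelium and 19 in neuroblasts against astrocytes; the cause was not tested. Leaving out the pericyte class gave 5 lower in astrocytes, 4 lower in OPC, 7 higher in microglia and a log2 fold of -0.28 for Ndufa4 in endothelium, since pericytes no longer lowered the mean it was set against.

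Without the replicate block, 66 members were higher and 3 lower in pericytes, and no count in any comparison moved by over 1.5 times. Leaving out each library in turn gave 64 to 65 members higher in pericytes, 67 to 68 higher against endothelium, 61 to 63 lower in endothelium and 64 to 71 lower in microglia. The comparisons with oligodendrocytes were not run, as the class held 8 to 11 cells per library, which limits every value given for it.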

Other observations

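Cells outside the 7 classes also held the pericyte paralogues. A total of 45 cells with both Acta2 and Myh11, the contractile genes of smooth muscle, fell into no class. They had 469 ± 157 CPM of Cox4i2, 1553 ± 182 of Ndufa4l2 and 281 ± 51.4 of Ndufa4 (SD, n = 3 libraries). Their Cox4i2 level was 402, 648 and 357 CPM in libraries 1, 2 and 3, below the 1019 to 1073 CPM of the pericyte class in each library. Their Ndufa4 level, at 248, 254 and 340 CPM, lay between those of pericytes and of microglia. These cells were picked by their contractile genes after the classes were set, and no test was made on them.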
